A study of Mus musculus with 8 samples.

Results

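Transcript levels of 8 genes of the apoptosis machinery were examined in mouse embryos before and after the first cleavage. They are 4 caspases (Casp2, Casp8, Casp9 and Casp6) and 4 genes of the inhibitor of apoptosis (IAP) family (Birc2, Birc3, Birc6 and Xiap). They were taken by symbol from 21553 genes with a value, with earlier results of these data known. Zygotes from B6CBA F1 crosses received mRNA encoding the fluorescent protein mCherry as a control, Snrpb, Snrpd2, or the last 2 together (the combined injection). The 3 injections other than mCherry are called Snrp injections here. Snrpb and Snrpd2 encode Sm proteins, which surround the small nuclear RNAs of the spliceosome, and the series compares raised with control levels of them. RNA was taken 5 h after injection, at the 1-cell stage, or 24 h after injection, at the 2-cell stage. Each of the 8 combinations of injection and stage is represented by 1 library, a pool of 40 embryos drawn from 3 experiments. No condition therefore had a replicate, no uninjected embryos were analysed here, and every embryo carried an injected mRNA.

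Caspases are cysteine proteases that are made as inactive precursors. Initiator caspases (Casp2, Casp8 and Casp9) are activated inside large protein complexes, the PIDDosome, the death receptor complex and the apoptosome, and they in turn activate executioner caspases such as Casp6, which cut the cell's proteins. IAP proteins carry BIR domains and restrain this cascade: Xiap binds and blocks caspases directly, whereas Birc2 and Birc3 (cIAP1 and cIAP2) are ubiquitin ligases of the tumour necrosis factor receptor pathway and Birc6 is a very large ubiquitin-conjugating enzyme. In the mouse, the zygote lives largely on transcripts inherited from the oocyte, many of which are degraded as the embryonic genome becomes active at the 2-cell stage.

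The libraries held between 39492734 and 59979046 counted reads. The injected genes followed the labels: Snrpb took 0.0974% to 4.88% of the reads where it had been injected and at most 0.00291% elsewhere, and Snrpd2 took 0.121% to 0.459% against at most 0.00027%. All 10 oocyte and embryo markers were read in each library, with a summed cRPKM (the authors' RPKM value, reads per length and per library total) of 5710 to 7210. Markers of other cells were low, with sums over 15 cumulus and granulosa cell genes of 7.94 to 35.4, and over 6 sperm genes of 3.11 to 5.31. Those of 5 oviduct epithelium genes and 4 blood genes moved with the stage. The oviduct sum was 9.23 to 26.8 at the 1-cell and 52.7 to 75.8 at the 2-cell stage. Of its genes, Epcam (0.14 to 0.35 and 9.39 to 13.9 cRPKM), Krt8 (4.31 to 16.5 and 18.4 to 27.3), Krt18 (4.22 to 9.86 and 22.6 to 36.4) and Foxj1 (0 to 0.05 and 0.25 to 0.37) were higher in every 2-cell library, and Ovgp1 was not (0.13 to 0.32 and 0.12 to 0.28). The blood sum was 0 to 0.08 in zygotes and 3.91 to 14.7 in 2-cell embryos, nearly all from Lyz2, with Hbb-bs at 0 reads in all 8 libraries. Single cumulus and granulosa cell genes also moved, in opposite directions. Mean Foxl2 was 0.0375 cRPKM in zygotes and 4.588 in 2-cell embryos, and mean Amhr2 0.5925 and 3.99. Mean Inhba was 3.062 and 0.215, and mean Star 1.155 and 0.2725. The part of these markers in the stage results was not tested. The 1-cell mCherry library stood a little apart, with a correlation across genes of 0.9929 to 0.9938 with the other 1-cell libraries against 0.9958 to 0.9962 among those.

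The promoter sequences of 4 genes are shown: those of Birc2 and Birc3, adjacent genes with very different levels, and those of Casp8 and Casp6, the genes with the largest fall and the largest rise between the stages. They are the 250 bases before the start site in RefSeq's table for GRCm38.p6, with CG dinucleotides in capitals; all 8 genes had an entry. Where the table lists several start sites for a gene (2 for Birc2 and 3 for Xiap), the most upstream was taken. Whether these start sites were used in the embryos was not examined.
Birc2 promoter, chr9:7837058-7837307, minus strand: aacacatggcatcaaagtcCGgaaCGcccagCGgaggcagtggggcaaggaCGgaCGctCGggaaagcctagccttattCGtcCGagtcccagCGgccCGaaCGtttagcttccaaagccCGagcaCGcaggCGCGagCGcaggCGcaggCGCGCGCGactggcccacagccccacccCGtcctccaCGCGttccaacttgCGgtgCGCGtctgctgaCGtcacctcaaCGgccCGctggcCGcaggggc
Birc3 promoter, chr9:7873171-7873420, minus strand: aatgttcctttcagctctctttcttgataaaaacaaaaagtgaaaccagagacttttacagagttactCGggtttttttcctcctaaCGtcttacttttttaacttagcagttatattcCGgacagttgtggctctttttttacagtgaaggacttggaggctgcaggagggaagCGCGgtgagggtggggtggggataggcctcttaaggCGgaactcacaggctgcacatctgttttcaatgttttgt
Casp8 promoter, chr1:58802252-58802501, plus strand: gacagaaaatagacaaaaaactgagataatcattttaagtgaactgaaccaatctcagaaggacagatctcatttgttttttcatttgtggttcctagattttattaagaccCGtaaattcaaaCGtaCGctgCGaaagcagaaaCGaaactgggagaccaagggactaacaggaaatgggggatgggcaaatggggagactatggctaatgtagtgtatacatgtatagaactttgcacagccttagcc
Casp6 promoter, chr3:129901165-129901414, plus strand: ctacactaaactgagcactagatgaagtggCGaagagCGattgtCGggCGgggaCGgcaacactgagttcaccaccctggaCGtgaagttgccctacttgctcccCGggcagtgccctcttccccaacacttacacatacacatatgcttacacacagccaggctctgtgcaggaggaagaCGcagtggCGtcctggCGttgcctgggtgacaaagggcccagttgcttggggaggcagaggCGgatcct
The Birc2 window held 31 CG dinucleotides and the Birc3 window 6, which were 1.07 and 0.52 of the number its C and G content gives by random order. For Casp8 there were 5 (0.53) and for Casp6 11 (0.52). Among the other genes this ratio was 1.17 for Casp9, 0.75 for Casp2, 0.76 for Birc6 and 0.08 for Xiap, and the median over 27018 promoters was 0.38. At the other start site of Birc2 the ratio was 0.81, from 19 CG dinucleotides, and at those of Xiap 0.65 and 0.11, so these values belong to the start site taken. A ratio under 0.6 was found in 4 of the 8 genes and in 65.1% of all promoters. On either strand, TATAAA was in none of the 8 windows (0 of 8, against 13% of all promoters), CCAAT was in 2 (Casp2 and Casp8, against 34.5%) and GGGCGG was in 5 (Casp2, Casp9, Casp6, Birc6 and Xiap, against 33%). The start sites not taken added GGGCGG for Birc2 and TATAAA for Xiap.

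Birc2 and Birc3 are next to each other on chromosome 9 and are copies of a common ancestor, so reads could in principle be shared between them. In the GENCODE vM21 transcripts they have 1 identical stretch of at least 50 bases. It is 114 bases long, lies in the coding sequence, at bases 2080 to 2193 of a Birc2 transcript of 3331 bases and 1378 to 1491 of a Birc3 transcript of 2667 bases, and is printed because it is where reads of the pair cannot be told apart.
Birc2 and Birc3 shared coding stretch: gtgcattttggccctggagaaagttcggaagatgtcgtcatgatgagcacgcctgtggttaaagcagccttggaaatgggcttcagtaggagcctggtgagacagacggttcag
It accounts for 65 windows of 50 bases, 1.81% of those of Birc2 and 1.47% of those of Birc3. Birc2 reads came to 0.364% to 0.632% of the Birc3 reads at the 1-cell stage and 2.09% to 2.67% at the 2-cell stage. Since the rule for assigning shared reads is not given in the sources used here, the part of the Birc2 reads that comes from this stretch is unknown. Birc2 values are therefore uncertain at both stages. At the 1-cell stage the Birc2 reads were a smaller share of the Birc3 reads than the stretch is of the Birc3 windows (1.47%). Those 4435 windows come from all protein-coding Birc3 transcripts. The length behind the authors' Birc3 cRPKM was 2490 bases, and the stretch is a larger share of it. Of the Birc3 windows, 8.66% also occur in other genes (mostly Gm7019), and of those of Casp8 4.37% occur in Gm20257. Antisense or opposite-strand genes overlap 1.81% of the exonic bases of Casp9 (Cela2a and Ctrc) and 2.37% of those of Birc6 (Gm26749).

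Birc3 stood far above the other genes in all 8 libraries, and the order below it changed between the stages. It was one of the most abundant transcripts of the zygote, ranking between 68 and 77 of 21553 genes by cRPKM at the 1-cell stage and between 326 and 355 at the 2-cell stage. It made up 91.9% to 92.8% of the summed cRPKM of the 8 genes in zygotes and 86.9% to 87.5% in 2-cell embryos. In zygotes Birc3 was followed by Casp8 (21 times lower in mean cRPKM), Casp2 (a further 2.3 times), Birc2 (a further 4.86 times), Casp6, Casp9, Birc6 and Xiap. The ranges of Birc2 and Casp6, of Casp6 and Casp9 and of Birc6 and Xiap overlapped between neighbours, so their order is not resolved by the spread. In 2-cell embryos the order was Birc3, Casp2 (23.6 times lower), Casp6, Casp8, Birc2, Casp9, Xiap and Birc6, with overlapping ranges for Casp2 and Casp6, Casp6 and Casp8, and Casp9 and Xiap. By its mean, Casp8 thus moved from the second place to the fourth, though its order against Casp6 in 2-cell embryos is not resolved.

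**Figure D1:**
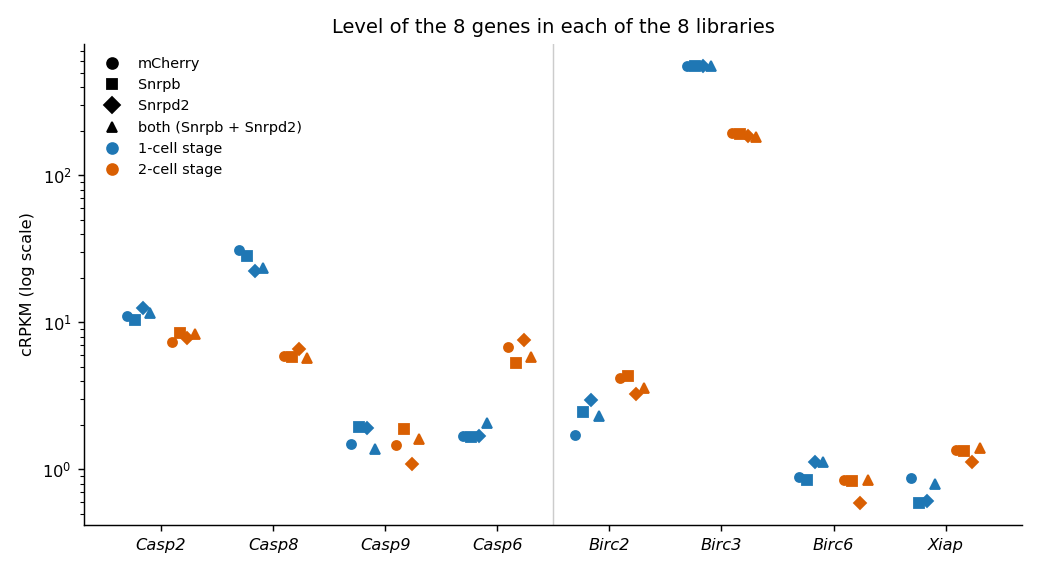
Level of each gene (cRPKM, log axis) in the 8 libraries; blue points are 1-cell and orange points 2-cell libraries, and the symbol gives the injected mRNA. The 4 Birc3 points lie near 552 in zygotes and near 189 in 2-cell embryos, while Birc6 and Xiap stay near 1 at both stages.

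The stage was the comparison with the largest differences. Between the 1-cell and the 2-cell stage, 4 of the 8 genes fell (Casp8, Birc3, Casp2 and Birc6), 2 rose (Casp6 and Xiap) and 2 did not pass the test (Birc2 and Casp9). Calls are at an adjusted p under 0.05 in edgeR's quasi-likelihood test, in a model with stage and injection in which the 4 injections stand in for replicates, so that the p-values measure the spread between differently injected pools. All 8 genes passed the filter on low counts. Changes of this kind were common: 38.1% of the 16264 genes tested were called higher and 32% lower, so 6 of 8 genes called is near the background of 70.1%. At least 2-fold lower were 2 of the 8 (Casp8 and Birc3, against 19.7% of all genes) and at least 2-fold higher was 1 (Casp6, against 29.4%). The median log2 change of the 8 genes was -0.51, against 0.15 over all genes. The libraries hold relative amounts of polyadenylated RNA from pools of 40 embryos. Rises and falls are therefore relative. Neither the amount per embryo nor the polyadenylated share of a transcript can be read from them.

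Among the initiator caspases, Casp8, which death receptors recruit, fell most. It was read at 31.0 cRPKM with mCherry, 28.2 with Snrpb, 22.4 with Snrpd2 and 23.4 with the combined injection in zygotes, and at 5.93, 5.82, 6.59 and 5.68 in the same order in 2-cell embryos. Every zygote library was more than 3-fold above every 2-cell library, with means of 26.2 ± 4.05 and 6.0 ± 0.403 (SD, n = 4 libraries each). The fitted log2 change was -2.38 ± 0.14 (SE; edgeR adjusted p = 2.03e-07), a 5.19-fold fall, and 4.08% of all genes fell as far or further. Within the injections the 2-cell to 1-cell ratio was 0.167 with mCherry, 0.167 with Snrpb, 0.236 with Snrpd2 and 0.21 with the combined injection.

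Casp2, the caspase of the PIDDosome, fell less. Its levels were 11.1, 10.4, 12.6 and 11.7 cRPKM in zygotes given mCherry, Snrpb, Snrpd2 and the combined injection, and 7.4, 8.49, 7.79 and 8.32 in 2-cell embryos. The ranges did not overlap (means 11.4 ± 0.921 and 8.0 ± 0.499, SD, n = 4), and the log2 change was -0.77 ± 0.12 (edgeR adjusted p = 0.000284). Casp9, the caspase of the apoptosome, was low and did not pass the test. It was read at 1.48, 1.93, 1.91 and 1.37 cRPKM in zygotes and at 1.47, 1.87, 1.08 and 1.62 in 2-cell embryos, in the same order of injections. These ranges overlapped, and the log2 change was -0.41 ± 0.22 (edgeR adjusted p = 0.116). Within the injections its 2-cell to 1-cell ratio was lowest with Snrpd2, at 0.457 (95% counting interval 0.381 to 0.545), against 0.867 with mCherry, 0.782 with Snrpb and 1.03 with the combined injection.

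The executioner caspase Casp6 went the other way. Its cRPKM was 1.68 with mCherry, 1.66 with Snrpb, 1.68 with Snrpd2 and 2.08 with the combined injection in zygotes, from 128 to 145 reads, and 6.75, 5.27, 7.56 and 5.83 in 2-cell embryos. All 2-cell libraries were above all zygote libraries, and the log2 change of 1.57 ± 0.20 was a 2.97-fold rise (edgeR adjusted p = 4.72e-05), which 24.8% of all genes matched or exceeded. The ratio within an injection was 3.49, 2.57, 3.61 and 2.42 for mCherry, Snrpb, Snrpd2 and the combined injection.

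Birc3, a ubiquitin ligase that acts with the tumour necrosis factor receptor complex, fell by a nearly constant factor. Zygotes held 555, 550, 554 and 550 cRPKM and 2-cell embryos 195, 192, 186 and 182, in the order mCherry, Snrpb, Snrpd2 and combined, each from at least 17936 reads. The 4 zygote values lay within a narrow band (552 ± 2.65, SD, n = 4) and so did the 2-cell values (189 ± 5.49). The log2 change was -1.81 ± 0.11 (edgeR adjusted p = 2.22e-07), a 3.51-fold fall, and 8.29% of all genes fell as far. Within the injections the ratio was 0.305, 0.281, 0.269 and 0.287. Its neighbour Birc2 did not share this fall: its cRPKM was 1.71, 2.44, 2.95 and 2.31 in zygotes and 4.15, 4.31, 3.28 and 3.58 in 2-cell embryos. The Birc2 ranges did not overlap, yet on the scale of the fit the log2 change was 0.46 ± 0.21 and did not pass (edgeR adjusted p = 0.0688). The ratio of Birc3 to Birc2 per length was 188 to 325 in zygotes and 44.4 to 56.7 in 2-cell embryos.

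Birc6 and Xiap, the least abundant of the 8, moved in opposite directions. Birc6 was read at 0.89, 0.85, 1.12 and 1.12 cRPKM in zygotes and 0.84, 0.83, 0.59 and 0.85 in 2-cell embryos, ranges that touch at 0.85. Its log2 change was -0.61 ± 0.18 (edgeR adjusted p = 0.0111). Xiap stood at 0.88, 0.59, 0.61 and 0.80 in zygotes and 1.36, 1.34, 1.12 and 1.40 in 2-cell embryos, with no overlap. It rose by 0.61 ± 0.17 on the log2 scale (edgeR adjusted p = 0.00898), and without the 1-cell library of the combined injection the adjusted p was 0.0529.

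**Figure D2:**
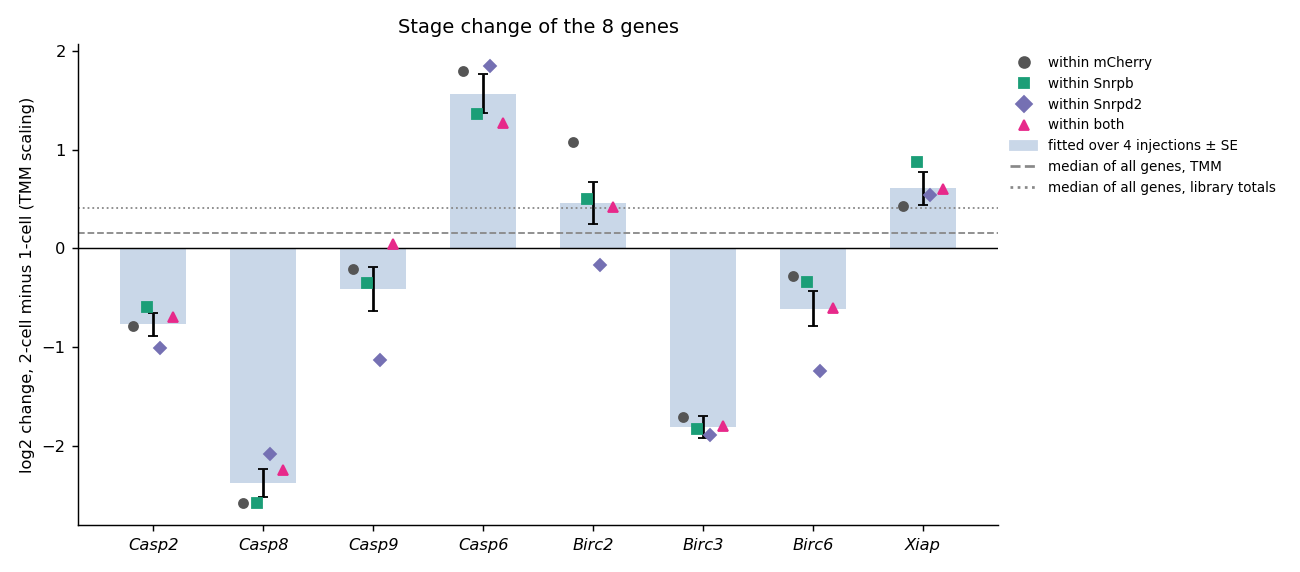
Log2 change of the 8 genes, 2-cell minus 1-cell; bars are the change fitted over the 4 injections with its SE, points the change within each injection, and the dashed and dotted lines the median of all genes with TMM scaling and with library totals. Casp8 and Birc3 lie below -1.5 in each injection and Casp6 above 1, while the Birc2 and Casp9 points lie on both sides of 0.

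The smaller stage changes depended on how libraries were scaled. With library totals in place of TMM (edgeR's trimmed-mean scaling), the median log2 change of all genes moved from 0.15 to 0.41, and all calls moved from 6198 higher and 5198 lower to 7273 and 4162. Birc2 then passed (0.72, edgeR adjusted p = 0.00829) and Birc6 did not (-0.36, edgeR adjusted p = 0.0977). In DESeq2 Birc2 passed too (adjusted p = 0.0438). In limma on log2(cRPKM + 0.1) and + 1 Birc2 passed (adjusted p = 0.0089 and 0.0105) and Birc6 did not (0.216 and 0.175). The change from TMM to library totals moved all genes alike, so values relative to the median of all genes had to be the same on both scales. They were 0.31 for Birc2, 0.46 for Xiap, 1.42 for Casp6, -0.57 for Casp9, -0.77 for Birc6, -0.93 for Casp2, -1.96 for Birc3 and -2.53 for Casp8. In limma on log2(cRPKM + 0.1) they ran from -2.45 for Casp8 to 1.42 for Casp6. Birc2 also passed without either Snrpd2 library (edgeR adjusted p = 0.02 without the 1-cell and 0.0185 without the 2-cell library). Without the 1-cell mCherry library there were again 4 genes lower and 2 higher, and Birc2 stood at 0.21. By cRPKM ranges alone, 3 of the 8 genes were higher with no overlap (Casp6, Birc2 and Xiap) and 3 lower (Casp8, Birc3 and Casp2), against 42.8% and 24.8% of all genes.

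Summed by role, the initiator caspases Casp2, Casp8 and Casp9 came to 36.4 to 43.5 cRPKM in zygotes and 14.8 to 16.2 in 2-cell embryos, with no overlap. The sum of the 4 IAP genes was 554 to 559 in zygotes and 188 to 201 in 2-cell embryos. Without Birc3 it was 3.48 to 4.68 and 4.99 to 6.48.

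The wider machinery changed in both directions. Of 39 genes listed by role, 35 were tested; 11 rose, 9 fell and 15 did not pass, with a median log2 change of 0.18 against 0.15 for all genes, and Casp12, Casp14, Naip2 and Fasl were too low to test. The share called was 57.1%, against 70.1% of all genes (38.1% higher and 32% lower), and the counts by role below stand against the same background. With library totals 17 were higher and 4 lower (48.6% and 11.4%, against 44.7% and 25.6% of all genes). At least 4-fold higher were 6 of the 35 (20.8% of all genes), and 0 were at least 4-fold lower (6.31%). Of the 2 other caspases tested, both inflammatory, Casp4 rose by 3.81 ± 1.47, which rests on 1 and 22 reads over 4 libraries a stage (edgeR adjusted p = 0.0432, and 0.145 in DESeq2). The Casp4 call was lost without any 1 of the 4 zygote libraries or the 2-cell mCherry library (edgeR adjusted p = 0.05 to 0.206). Casp1 was low (0.278 ± 0.16 and 0.315 ± 0.142 cRPKM, SD, n = 4) and did not pass (log2 change 0.02 ± 0.51, edgeR adjusted p = 0.976), and its direction turned without the filter on low counts. Both apoptosome genes rose. Cycs (cytochrome c) went from 2.28 ± 0.223 to 11.6 ± 1.32 cRPKM (log2 change 2.08 ± 0.14, edgeR adjusted p = 6.56e-07).

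In the death receptor group 5 of 12 rose and 2 fell. Largest were Map3k14, the kinase of the alternative NF-kappaB pathway that Birc2 and Birc3 hold in check (18 and 485 reads over 4 libraries a stage, log2 change 4.86 ± 0.60), the death receptor Tnfrsf10b (51 and 806 reads, 4.01 ± 0.40) and the adaptor Traf2, which recruits Birc2 and Birc3 (168 and 1489 reads, 3.30 ± 0.22); edgeR gave adjusted p = 4.61e-05, 9.28e-06 and 4.96e-07. Casp8ap2, a Casp8-associated protein and the most abundant of the group, rose by 1.45 ± 0.15 (edgeR adjusted p = 1.33e-05). Of the IAP antagonists 1 of 4 rose and 1 fell: Sept4 rose from 20 to 140 reads (2.94 ± 0.81, edgeR adjusted p = 0.00818), and Diablo, which frees caspases from Xiap, stood at 18.1 ± 0.486 and 25.5 ± 2.28 cRPKM (log2 change 0.23 ± 0.13, edgeR adjusted p = 0.123, and 0.00549 with library totals). In the PIDDosome, Pidd1 rose by 1.68 ± 0.36 (edgeR adjusted p = 0.00206) and Cradd fell.

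Of the 5 other IAP genes tested, 2 fell and 0 rose. Birc5 (survivin), which acts mainly in chromosome segregation, was as abundant as Birc3 in zygotes (541 ± 68.5 cRPKM, SD, n = 4) and, unlike it, stood at 529 ± 61 in 2-cell embryos. Its log2 change was -0.29 ± 0.11 (edgeR adjusted p = 0.0308), and -0.03 with library totals (edgeR adjusted p = 0.802). Leaving out any of 5 libraries (1-cell Snrpb or combined, 2-cell mCherry, Snrpb or combined) also ended the call, at adjusted p = 0.0712 to 0.117 in edgeR. Of the substrates and nucleases 1 of 8 rose and 3 fell, and the kinase Rock1 rose by 0.68 ± 0.13 (edgeR adjusted p = 0.0007).

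**Figure D3:**
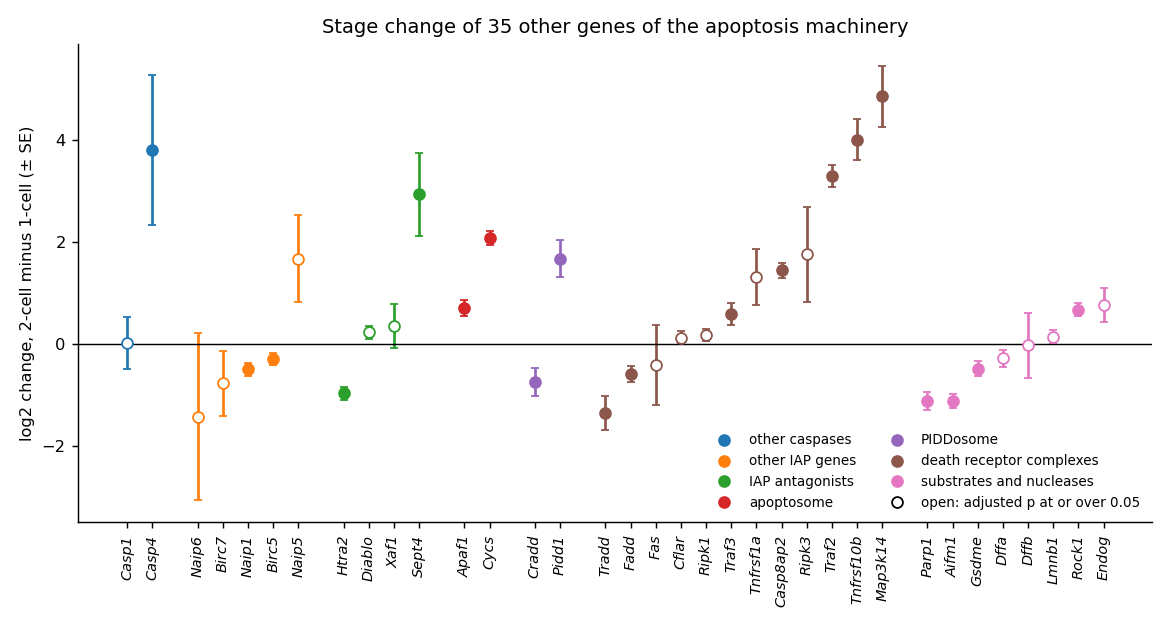
Log2 change, 2-cell minus 1-cell, with its SE for 35 other genes of the machinery, grouped and coloured by role; filled points passed the test. Map3k14, Tnfrsf10b, Traf2 and Casp4 lie above 3, and the lowest gene that fell, Tradd, lies at -1.35.

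Injection of Snrp mRNA was followed by smaller differences in the 8 genes. Taking the 3 Snrp libraries of a stage together against the lone mCherry library, which is assumed to vary like them, edgeR called 0 of the 8 genes at either stage and 0 of 16867 genes in all (background 0%). At an unadjusted p under 0.05 there were 2618 genes (15.5%) at the 1-cell stage and 637 (3.78%) at the 2-cell stage. At the 1-cell stage DESeq2 called 423 genes higher and 117 lower, and limma on log2(cRPKM + 0.1) called 0 higher and 1 lower. At the 2-cell stage DESeq2 called 0 genes and limma 2. None of these calls was one of the 8 genes. In counts simulated at the totals of these libraries, the 1-cell test recovered 26% of genes changed 2-fold and 96% of genes changed 4-fold. The simulation gave all genes the same spread, no stage effect and the same change in all 3 Snrp libraries. It changed only genes above a floor of reads, so these rates need not hold for the measured counts. Changes under 2-fold were thus mostly not detectable. On the measured counts the 1-cell edgeR test called neither Snrpb nor Snrpd2. Zygotes held 494 Snrpb reads with mCherry, 2924694 with Snrpb, 367 with Snrpd2 and 655262 with the combined injection. For Snrpd2 there were 27, 13, 248504 and 115753 reads in the same order. The recovery of 96% did not extend to these injected genes, which differ among the Snrp libraries.

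Of the 8 genes, Birc2 alone had an unadjusted edgeR p under 0.05, in the 1-cell test and in the test of the difference between the stages. Both results were lost in limma at either pseudocount, and without the 1-cell Snrpd2 or the 2-cell combined library. The difference between the stages was also lost with library totals, in DESeq2, and without the 1-cell Snrpb or the 2-cell Snrpd2 library. In zygotes Birc2 was read 281 times with mCherry and 433, 472 and 338 times with Snrpb, Snrpd2 and the combined injection. All 3 Snrp libraries were higher, by 1.53 (95% counting interval 1.31 to 1.78), 1.77 (1.53 to 2.06) and 1.33 (1.13 to 1.56). The fitted log2 difference was 0.63 ± 0.27 (edgeR adjusted p = 0.297). The summed cumulus and granulosa cell markers were also lowest with mCherry, at 7.94 cRPKM against 21, 13.9 and 35.4 in the same order, and their part in the Birc2 values was not tested. In 2-cell embryos the ratios were 1.03 (0.91 to 1.17), 0.747 (0.656 to 0.85) and 0.844 (0.741 to 0.962), and the fitted difference was -0.20 ± 0.25 (edgeR adjusted p = 1). The difference between the stages was -0.82 ± 0.37 (edgeR adjusted p = 0.507); in that contrast edgeR called 0 genes, 1648 (9.77%) had an unadjusted p under 0.05, and DESeq2 called 12 higher and 51 lower, limma on log2(cRPKM + 0.1) 1 and 0, with none of the 8 genes among them.

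Of the 8 genes, Xiap had the largest fitted difference in the opposite direction in zygotes. It was lower in the 3 Snrp libraries, with ratios of 0.709 (0.596 to 0.843), 0.715 (0.599 to 0.852) and 0.888 (0.75 to 1.05), and the fitted log2 difference was -0.38 ± 0.26 (edgeR adjusted p = 0.51). Casp8 was lower in 2 of them, at 0.741 (0.707 to 0.776) with Snrpd2 and 0.741 (0.707 to 0.777) with the combined injection, but 0.971 (0.931 to 1.01) with Snrpb. Casp9 was higher with Snrpb (1.39, 1.2 to 1.62) and with Snrpd2 (1.32, 1.14 to 1.54) but not with the combined injection (0.909, 0.767 to 1.07). Birc6 was higher with Snrpd2 (1.29, 1.18 to 1.42) and the combined injection (1.24, 1.12 to 1.36). Birc3 moved least, with ratios between 0.903 and 1.06 over both stages; in zygotes given Snrpb or Snrpd2 it was 1.06 and 1.02 here but 0.99 and 0.997 with library totals.

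In 2-cell embryos given Snrpd2 the differences beyond counting error lay in 1 direction: 5 of the 8 genes lay below the mCherry library with their whole interval and none above, against 30.6% of all genes below and 30.3% above. They were Birc6 (0.666, 0.587 to 0.756), Casp9 (0.696, 0.571 to 0.847), Birc2 (0.747), Xiap (0.774, 0.665 to 0.9) and Birc3 (0.903, 0.886 to 0.921). All 4 IAP genes were thus among them, from 1 library with no replicate. In 2-cell embryos Birc3 also lay below with Snrpb (0.976, 0.957 to 0.995) and with the combined injection (0.916, 0.897 to 0.934). Birc2 did so with the combined injection, and Birc6 and Xiap with neither. With Snrpd2 in zygotes, 5 of the 8 genes lay above and 2 below, against 34% and 40.6% of all genes. The 2-cell Snrpd2 library had the highest 2-cell sums of blood (14.7 cRPKM, against 3.91 to 7.43) and oviduct epithelium markers (75.8, against 52.7 to 58.5). Its sum of cumulus and granulosa cell markers was also the highest (26.2, against 20.8 to 21.4). The blood sum was nearly all Lyz2, and within each list the genes did not move alike between the stages. The part of these markers was not tested. With Snrpb, Casp6 was lower (0.775, 0.665 to 0.902) and Casp9 higher (1.26, 1.06 to 1.5).

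Over the 48 ratios to mCherry, 28 (58.3%) had an interval that excluded 1, against 59.1% to 74.6% of all genes over the 6 comparisons, so that the count is not above the background. The extremes were 0.666 and 1.77, and 0 reached 2-fold. Among all genes with at least 50 reads, the share at least 2-fold higher with an interval beyond 1 was 3.37% for Snrpb, 3.65% for Snrpd2 and 3.26% for the combined injection in zygotes and 2.65%, 2.76% and 2.15% in 2-cell embryos. The share at least 2-fold lower was 1.29%, 1.53% and 0.891% in zygotes and 1.72%, 1.55% and 1.36% in 2-cell embryos. The intervals cover counting error only, and all 6 comparisons share the control library of their stage. Set against each other, the Snrp libraries of a stage gave 48 further ratios between 0.651 and 1.81, all under 2-fold. In a fit over both stages edgeR called none of the 8 genes for Snrpb, Snrpd2 or the combined injection. Over all 16264 genes it called 0, 1 and 0 (backgrounds of 0%, 0.00615% and 0%). An unadjusted edgeR p under 0.05 was reached by 583 (3.58%), 497 (3.06%) and 506 (3.11%) genes. DESeq2 and limma called none of the 8 either. With 0 genes called for Snrpb in edgeR, Snrpb itself was missed, at 494 reads with mCherry and 2924694 with Snrpb in zygotes. The combined test likewise missed both injected genes, so an absence of calls in these tests says little.

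**Figure D4:**
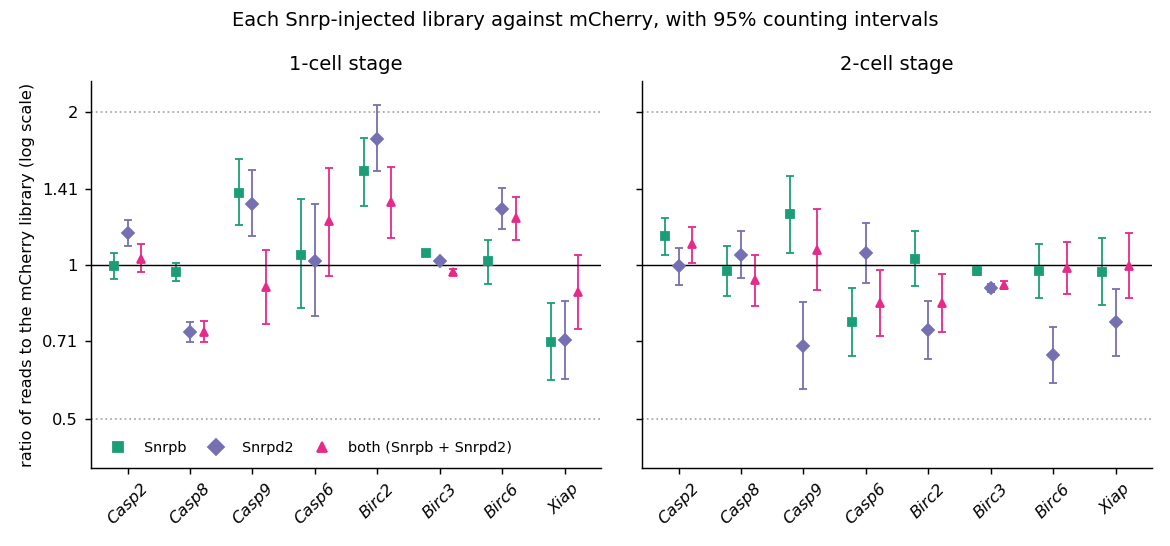
Ratio of reads in each Snrp-injected library to the mCherry library of its stage (TMM-scaled, log axis) with 95% counting intervals; dotted lines mark 2-fold. Birc2 lies above 1 with all 3 Snrp injections in zygotes, between 1.33 and 1.77, and 5 of the 8 Snrpd2 intervals in 2-cell embryos lie wholly below 1.

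The genes whose profile over the 8 libraries was nearest to each member, by the root mean square difference of centred log2 values, were Larp4b and Sfmbt1 for Casp2, Bfar and Fbxw16 for Casp8, Slc39a13 and Abca8a for Casp9, and Pemt and Speer4e for Casp6. They were Snx4 and Svip for Birc2, Anln and Mb21d2 for Birc3, Dnajc13 and Ece1 for Birc6, and Wdr3 and Lrrc1 for Xiap. The distance was smallest for Birc3 and Anln (0.036) and largest for Casp9 and Abca8a (0.149). Profiles of this kind were shared widely for some of the 8 genes and by few genes for others. At 0.95 or more over 8 libraries, 2867 genes correlated with Casp8, 2823 with Birc3 and 2267 with Casp6. Casp2, with a smaller stage change (log2 -0.77), had 1780. Fewer correlated with Birc6 (53), Xiap (42), Birc2 (40) and Casp9 (1). All these values share the same 8 libraries and their scaling.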

How the data were processed

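Polyadenylated RNA of pooled mouse embryos was sequenced with a stranded kit on a HiSeq2500, per the labels' protocols. The deposited tables give, for 22667 Ensembl genes, whole read counts as the authors made them and cRPKM, an RPKM value the authors computed from the count, a length per gene and the library total (checked on 2662 genes, deviation at most 0.172%). Per the submitters' processing notes, reads were placed on mm9; the aligner, annotation, strand setting and multi-mapping rule were not given in the sources used here. Symbols came from GENCODE vM21 by Ensembl identifier (20451 of 21553 genes with a value).

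Counts were tested with edgeR 4.0.16 (quasi-likelihood, TMM, filterByExpr, Benjamini-Hochberg over all genes) in R 4.3.3: a model with stage and injection (16264 genes, 3 residual degrees of freedom), and a model of 4 groups, stage by Snrp or mCherry (16867 genes, 4 residual degrees of freedom). On simulated data the stage test recovered 90% of 2-fold and 100% of 4-fold changes. Ratios of 2 libraries have exact conditional binomial intervals (95%), computed where 1 of the libraries had 50 reads or more; they cover counting error only, since PCR copies were not marked by molecular identifiers. Alternatives were library totals, scaling without Snrpb and Snrpd2, no filter, DESeq2 1.42.0, limma 3.58.1 on log2(cRPKM + 0.1) or + 1, and leaving out each library. The genes and lists were chosen with earlier results of these data known. Named were all 8 genes, listed genes called with at least 4-fold change, the most abundant gene of each role, and for each of the 8 genes the 2 nearest profiles. Some genes of the wider pathway are not reported here.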

Additional observations from a re-analysis of the deposited data

Results flagged for a closer look

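In 16 sets of 4 libraries (8 genes at 2 stages), 2 held a value set apart from the others by a large gap; chance gives such a gap in about 1 set of 20. Casp6 in zygotes given the combined injection stood at 2.08 cRPKM, against 1.66 to 1.68 in the other zygote libraries, from 145 reads against 128 to 140. Its ratios to them were 1.22 (95% counting interval 0.953 to 1.55, mCherry), 1.15 (0.909 to 1.47, Snrpb) and 1.19 (0.93 to 1.52, Snrpd2), all with intervals that include 1. The same library had the highest summed level of cumulus and granulosa cell markers (35.4, against 7.94 to 21 in the other zygote libraries) and, among zygotes, of oviduct epithelium markers (26.8); their part in the value was not tested. Birc6 in 2-cell embryos given Snrpd2 stood at 0.59 cRPKM, against 0.83 to 0.85 in the other 2-cell libraries. That library had the highest 2-cell sums of blood (14.7, against 3.91 to 7.43) and oviduct epithelium markers (75.8, against 52.7 to 58.5). Its sum of cumulus and granulosa cell markers was also the highest (26.2, against 20.8 to 21.4). The blood sum was nearly all Lyz2, and within each list the genes did not move alike between the stages. The part of these markers was not tested.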

How the results depend on the processing

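Each condition had 1 library, so that no replicates could be paired. The stage fit pairs the stages within each injection through its injection term. The stage calls of Casp2, Casp8, Casp6 and Birc3 held under all 14 alternatives, and no stage change of the 8 genes changed direction; Birc2 passed with library totals, DESeq2, both limma fits and without either Snrpd2 library, Birc6 did not pass with library totals or limma, and Xiap did not without the 1-cell library of the combined injection. Of the 8 genes, those called higher ranged from 1 to 3 when a library was left out. Listed genes called higher were 17 with library totals, 18 with limma on log2(cRPKM + 0.1) and 17 at + 1, and 4 were called lower in each of these. Casp1, 0.02 in the fit, was -0.036 with no filter and -0.184 to 0.388 with a library left out. Small injection differences changed sign: Birc3 at the 1-cell stage, 0.02 in the fit, was -0.011 with library totals and with limma at either pseudocount and ranged from -0.003 to 0.076 with a library left out. Casp8 at the 2-cell stage, -0.02 in the fit, was 0.024 with library totals, 0.021 and 0.018 with limma, and -0.065 to 0.017 with a library left out; Casp9 there ranged from -0.178 to 0.224, and the stage difference of Casp2 from -0.026 to 0.085. The ratio of Birc3 to mCherry in zygotes was 0.99 with Snrpb and 0.997 with Snrpd2 by library totals and by cRPKM, against 1.06 and 1.02 with TMM. The causes were not tested. Counts over all genes for the injections stayed small except in DESeq2 (423 higher and 117 lower at the 1-cell stage, 12 and 51 for the stage difference). With a library left out the 1-cell test called 0 to 3 genes higher, and the tests of Snrpb, Snrpd2 and the combined injection over both stages 0 to 1 each. The limma fit at + 0.1 gave 1 lower at the 1-cell stage, 2 higher at the 2-cell stage and 1 higher for the stage difference. DESeq2 gave 2 for Snrpd2 and 2 for the combined injection, where library totals, no filter and both limma fits gave 1. By Pearson correlation in place of the distance, 1 of the 2 nearest genes stayed for Casp6, Birc2, Birc3 and Birc6 and 0 of 2 for the other 4. With 1 pool per condition, low counts limit Casp6 most (128 to 145 reads in zygotes).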
